A study of Mus musculus with 16 samples.

Results

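The miR-200 family was followed through the small RNA cargo of extracellular vesicles from mouse lung lavage. Its members were chosen by name from the deposited CPM table (reads of a miRNA, scaled so that each library totals 1000000): mmu-miR-200a-3p, mmu-miR-200a-5p, mmu-miR-200b-3p, mmu-miR-200b-5p, mmu-miR-200c-3p, mmu-miR-141-3p, mmu-miR-141-5p and mmu-miR-429-3p, which are 8 of the 1907 mature miRNAs listed and are written below without the mouse prefix mmu. All 8 were read in each of the 16 libraries and passed the filter on low values (10 CPM or more in at least 4 libraries), as did 325 miRNAs in all.

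Vesicles came from bronchoalveolar lavage fluid of C57BL/6 mice, either wild type or Sdc1-/-, a knockout of the cell-surface heparan sulfate proteoglycan syndecan-1. In each genotype 4 libraries came from normal animals given PBS and 4 from animals with bleomycin injury, recorded as 21 days of bleomycin, a drug that injures the lung and leads to fibrosis. The labels give neither the animals' age nor whether a library is 1 animal or a pool, so p-values measure the spread between libraries, which may be partly technical. A miRNA table holds no Sdc1 mRNA, so the knockout itself was not checked here. Depth ran from 1094908 to 12837837 reads per library. CPM is a share of the vesicle miRNA reads, so fewer vesicles from a cell type and less of a miRNA per vesicle cannot be told apart.

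MicroRNAs of the miR-200 family are made mainly in epithelial cells, where they repress the transcription factors Zeb1 and Zeb2 and so help to keep E-cadherin and the epithelial state. Zeb1 and Zeb2 in turn repress the family's genes. A miRNA finds its targets mainly through its seed, bases 2 to 8 from the 5′ end, so members with the same seed share many predicted targets. Each hairpin gives a 5p and a 3p strand, and in this family the 3p strand is the usual guide.

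The members come from 5 hairpins in 2 clusters. On chromosome 4 of GRCm38.p6, minus strand, Mir200b, Mir200a and Mir429 lie within 1846 bases, from 156053905 to 156055750. All 3 are in introns of the protein-coding gene Ttll10. Mir200b and Mir200a are also in an intron of the noncoding transcript Gm13648, and Mir429 overlaps an exon of it. On chromosome 6, minus strand, Mir200c and Mir141 lie within 477 bases, from 124717914 to 124718390. Both are in an intron of the noncoding gene Gm15884, and Mir141 also overlaps an exon of Gm29008, which the annotation gives as a region still to be experimentally tested.

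The 3p strands are shown because they fall into 2 seeds that differ at 1 base, by which the values below are ordered. Sequences are from RefSeq (GRCm38.p6), all 8 members matched, and capitals mark the seed.
miR-200a-3p: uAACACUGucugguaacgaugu
miR-141-3p: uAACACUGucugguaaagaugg
miR-200b-3p: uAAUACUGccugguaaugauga
miR-200c-3p: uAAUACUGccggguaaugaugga
miR-429-3p: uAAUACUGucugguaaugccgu

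Counted from the 5′ end, miR-200a-3p and miR-200b-3p differ inside the seed at 1 base, C4U (the base of miR-200a-3p first). They differ outside it at U9C, C17U and U22A. MiR-200a-3p and miR-141-3p, which come from different chromosomes, share their seed and differ at C17A and U22G only. Likewise miR-200b-3p and miR-200c-3p differ at U11G and A22G over their first 22 bases. No other miRNA of the table with a RefSeq sequence (1623 of them) carried either 3p seed. Because pairs differ at 2 bases of 22, reads could have been shared between miR-200a-3p and miR-141-3p, or between miR-200b-3p and miR-200c-3p, if mismatches were allowed. The counting rule is not given in the sources used here. Per library miR-141-3p had 25 to 1033 reads where miR-200a-3p had 11438 to 573707. A small share of miR-200a-3p reads could make up much of the miR-141-3p count, so the values of the 2 may not be independent.

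The 5p strands of the 3 hairpins whose 5p arm is a member are shown because their balance with their own 3p strand was tested.
miR-200a-5p: cAUCUUACcggacagugcugga
miR-200b-5p: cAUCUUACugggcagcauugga
miR-141-5p: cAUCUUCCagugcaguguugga

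Levels differed widely between members. Averaged over all 16 libraries miR-200a-3p had 25244 CPM and ranked 13 in the table, miR-200b-3p had 15538 (rank 15), miR-200c-3p had 6696 (rank 20) and miR-429-3p had 2682 (rank 43). Among the lower members miR-200a-5p had a mean of 600 CPM, miR-200b-5p 151, miR-141-3p 48.9 and miR-141-5p 36.2. The cluster partners miR-200c-3p and miR-141-3p were far apart, although ligation of small RNAs favours some sequences and limits comparison between miRNAs. The 5p strands that are not members were close to the limit of detection, with at most 17 reads of miR-200c-5p and 7 of miR-429-5p in any library. Where a library lists 0, up to 3 reads remain possible, equal to 2.74 CPM at the lowest depth and 0.234 CPM at the highest.

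Counting error was small for most members. The exact 95% Poisson interval reached at most 1.85% either side of the value for miR-200a-3p in any library, and 1.40% for miR-200b-3p. It reached 47.6% for miR-141-3p and miR-141-5p in bleomycin wild-type library 1, where each had 25 reads. These intervals cover counting error only, since amplified reads are not independent molecules.

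Together the 8 members took 7.37, 6.80, 8.90 and 5.72% of miRNA reads in normal wild-type libraries 1 to 4, and 1.95, 5.29, 4.81 and 1.73% after bleomycin. In the knockout they took 4.11, 5.88, 4.73 and 6.37% in normal libraries and 4.97, 3.48, 5.71 and 3.78% after bleomycin. The 95% Wilson interval of each share was within 0.0489 percentage points of it. Bleomycin wild-type libraries all lay below the normal ones, while the knockout groups overlapped.

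**Figure D1:**
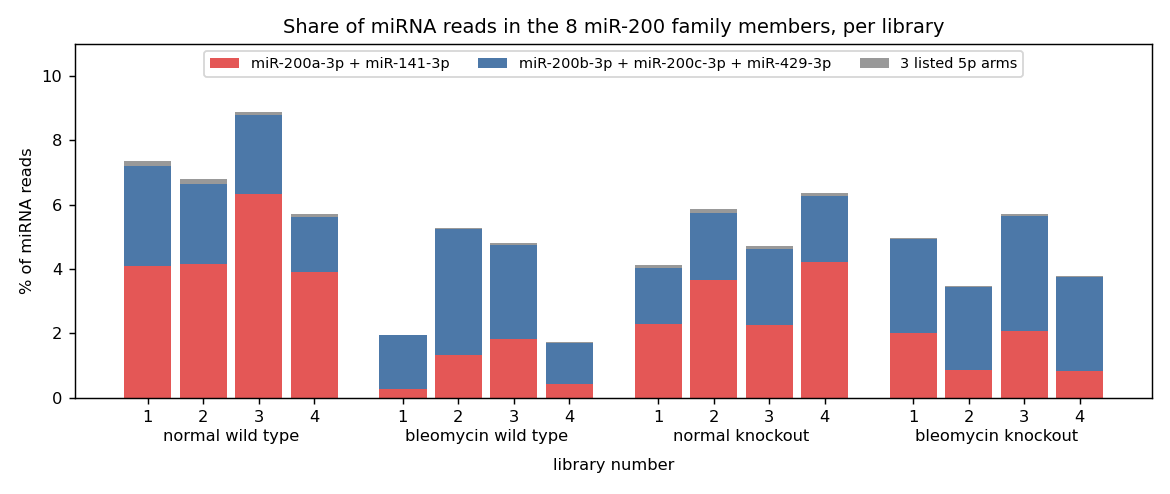
Percent of miRNA reads (vertical axis) in the family for each of the 16 libraries, stacked by miR-200a-3p with miR-141-3p, by miR-200b-3p with miR-200c-3p and miR-429-3p, and by the 5p arms. In wild type the first block averages 4.62% in normal libraries and 0.951% after bleomycin, while the second averages 2.45% in both.

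The first comparison asked how bleomycin changed these miRNAs in wild-type vesicles. MiR-200a-3p, the most abundant member of the normal libraries, had 40809, 41504, 63306 and 39002 CPM in normal wild type and 2534, 13090, 18205 and 4142 CPM after bleomycin. Every bleomycin library lay below every normal one, with libraries 1 and 4 lowest. The fall was 6.39-fold (log2 fold change of CPM + 5 -2.68, SE 0.52, limma adjusted p = 0.000748, n = 4 in each group).

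MiR-141-3p, its seed partner from chromosome 6, had 68.5, 60.2, 106 and 58.5 CPM in normal wild type and 5.54, 18.1, 19.5 and 13.5 CPM after bleomycin. Again the groups did not overlap, and the fall was 4.18-fold (log2 -2.06, SE 0.37, limma adjusted p = 0.000379). Normal libraries 1 to 4 held 75, 154, 961 and 507 reads of miR-141-3p beside 44682, 106113, 573707 and 337903 of miR-200a-3p. Bleomycin libraries 1 to 4 held 25, 49, 43 and 95 beside 11438, 35400, 40106 and 29201. Whether miR-200a-3p reads were counted as miR-141-3p was not tested. MiR-200a-5p, the other strand of the Mir200a hairpin, had 971, 1013, 911 and 777 CPM in normal libraries and 153, 476, 527 and 193 CPM after bleomycin. It fell 3.07-fold (log2 -1.62, SE 0.40, adjusted p = 0.00481), without overlap.

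The 3p strands with the other seed showed no such shift. MiR-200b-3p had 18258, 14820, 15233 and 10540 CPM in normal wild type and 11166, 24441, 18312 and 8168 CPM after bleomycin. Bleomycin libraries 2 and 3 reached or passed the highest normal library, and libraries 1 and 4 were among the lowest. The log2 difference was -0.02 (SE 0.33, 95% interval -0.71 to 0.67, limma adjusted p = 0.968), an interval that excludes a fall of the size seen for miR-200a-3p or miR-141-3p. For miR-200c-3p it was -0.18 (SE 0.37, 95% interval -0.96 to 0.59, adjusted p = 0.729). MiR-429-3p, whose hairpin is the neighbour of Mir200a on the same strand, had 2252, 2361, 3110 and 2205 CPM in normal libraries and 653, 3810, 3145 and 1418 CPM after bleomycin, a log2 difference of -0.43 (SE 0.48, 95% interval -1.43 to 0.57, adjusted p = 0.518). The sign of the miR-200b-3p and miR-200c-3p values was not stable: with miR-21a-5p left out of the total they were 0.35 and 0.19.

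Of the other 5p strands, miR-200b-5p had 587, 436, 104 and 144 CPM in normal wild type and 43.0, 82.8, 166 and 26.7 CPM after bleomycin, and the groups overlapped. It fell by 1.89 on the log2 scale (SE 0.66, limma adjusted p = 0.0343). Leaving out normal library 1 or 2, or bleomycin library 1, 2 or 4, took that call away, with limma adjusted p between 0.0515 and 0.123. In normal vesicles of both genotypes miR-200b-5p was at 355 to 587 CPM in the 3 libraries with the fewest reads and at 58.3 to 144 CPM in the 5 others. Without those 3 libraries the log2 change was -0.88 (adjusted p = 0.33), while with log2 reads as a covariate over all libraries it was -1.94 (adjusted p = 0.000409). The call was also lost with miR-21a-5p left out of the total (-1.55, adjusted p = 0.0676) and with no filter (adjusted p = 0.124). MiR-141-5p had 45.7, 49.7, 54.6 and 39.9 CPM in normal libraries and 5.54, 47.3, 50.8 and 17.4 CPM after bleomycin, with bleomycin libraries 2 and 3 inside the normal range (log2 -0.86, SE 0.43, adjusted p = 0.133). It was called without bleomycin library 3 (-1.17, adjusted p = 0.0327) and was at -0.37 without bleomycin library 1 (adjusted p = 0.409).

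In total 4 of 8 members were called lower in wild type and none higher. Of the 325 miRNAs tested 34.5% were called in either direction, 14.5% lower and 20% higher. For 3 of 8 every bleomycin library lay below every normal one, as for 6.77% of all tested. The members' median log2 change was -1.24, and that of all tested miRNAs was -0.004. The count was 3 when the 3 shallowest normal libraries were left out, and miR-200a-3p, miR-200a-5p and miR-141-3p stayed called in that fit. The same 3 stayed called when any 1 library was left out.

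**Figure D2:**
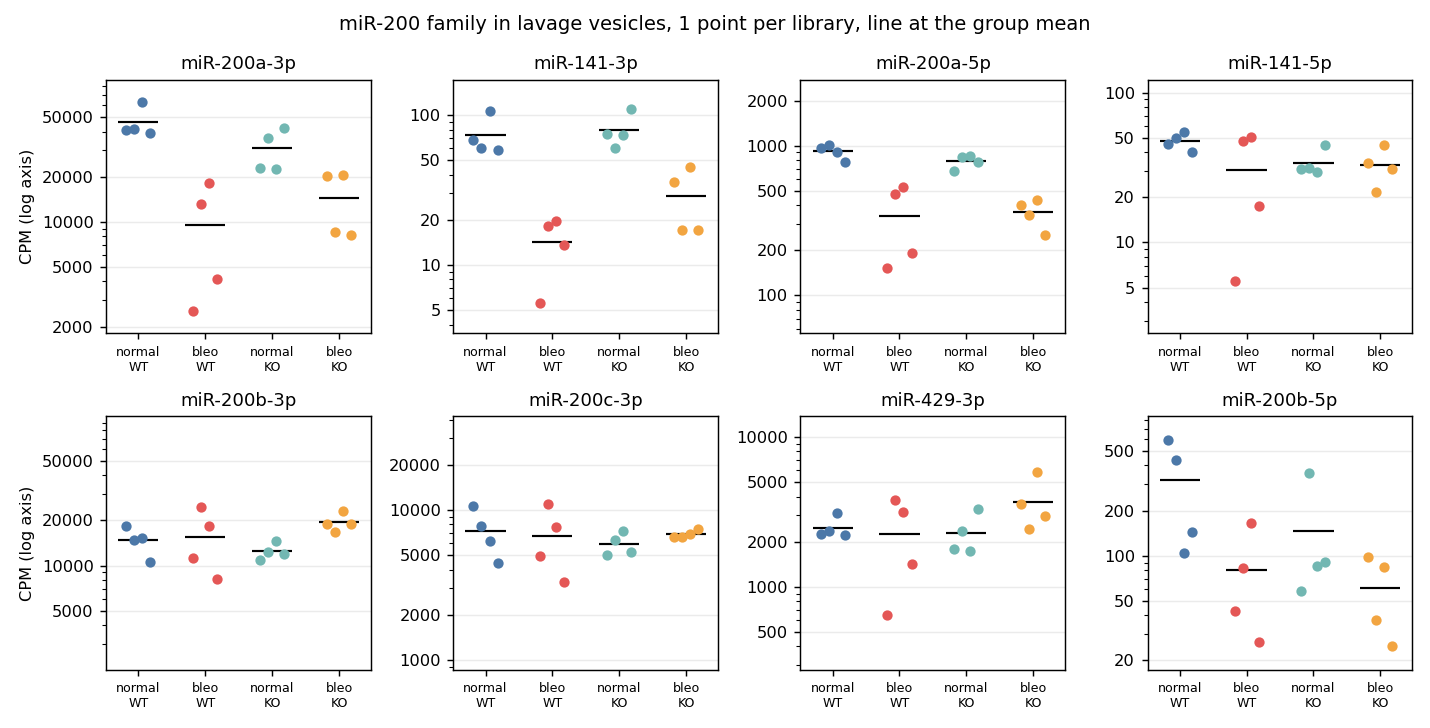
CPM on log axes for each member, 1 point per library and a line at the mean of each group of 4 (WT, wild type; KO, knockout; bleo, bleomycin). MiR-200a-3p, miR-141-3p and miR-200a-5p have all their bleomycin points under all their normal points in both genotypes, while miR-200c-3p and miR-429-3p overlap in both genotypes.

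The second comparison asked the same in Sdc1-/- vesicles. MiR-141-3p had 74.5, 60.7, 73.1 and 109 CPM in normal knockout and 35.7, 17.0, 44.9 and 17.2 CPM after bleomycin, with every bleomycin library below every normal one. It fell 2.62-fold (log2 -1.39, SE 0.37, limma adjusted p = 0.00994), and it was called without any 1 library as well. MiR-200a-5p had 681, 845, 847 and 774 CPM in normal libraries and 401, 345, 435 and 254 CPM after bleomycin. It fell 2.21-fold (log2 -1.14, SE 0.40, adjusted p = 0.0433), but the call was lost without any 1 of the 8 libraries (adjusted p 0.0594 to 0.133).

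MiR-200a-3p had 22680, 36443, 22617 and 42184 CPM in normal knockout and 20187, 8522, 20525 and 8149 CPM after bleomycin. The groups did not overlap, but bleomycin libraries 1 and 3 came close to normal libraries 1 and 3. The log2 difference of -1.19 (SE 0.52, 95% interval -2.29 to -0.10) was not past the threshold in limma (adjusted p = 0.118). It was past it in edgeR on the recovered reads (-1.18, adjusted p = 0.0317), under median-of-ratios scaling (-1.34, adjusted p = 0.0174) and with log2 reads as a covariate (-1.41, adjusted p = 0.0377).

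MiR-200b-3p went the other way, with 10847, 12395, 14665 and 12003 CPM in normal knockout and 18855, 16857, 23168 and 18881 CPM after bleomycin. Here the lowest bleomycin value was higher than the highest normal one. The log2 difference of 0.64 (SE 0.33, 95% interval -0.05 to 1.33) did not pass in limma (adjusted p = 0.177). With miR-21a-5p left out of the total it was 1.03 and passed (adjusted p = 0.0145). MiR-429-3p had 1796, 2342, 1723 and 3293 CPM in normal libraries and 3548, 2423, 5871 and 2964 CPM after bleomycin, a log2 difference of 0.66 (SE 0.48, adjusted p = 0.32).

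The remaining members were not called in the knockout. MiR-200c-3p lay between 4970 and 7247 CPM in normal libraries and between 6556 and 7462 CPM after bleomycin (log2 0.22, SE 0.37, adjusted p = 0.71), a value that was -0.01 with log2 reads as a covariate. MiR-200b-5p lay between 58.3 and 355 CPM and then between 25.1 and 98.3 CPM (log2 -1.02, SE 0.66, adjusted p = 0.278). It was called with log2 reads as a covariate (-1.72, adjusted p = 0.00247), but was at -0.48 without normal library 2, the shallowest of its group (adjusted p = 0.635). MiR-141-5p lay between 29.4 and 44.7 CPM and then between 21.8 and 44.7 CPM (log2 -0.07, SE 0.43, adjusted p = 0.93).

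Thus 2 of 8 members were called lower in the knockout and none higher, against 8.62% and 14.8% of the 325 miRNAs (23.4% in either direction). Groups did not overlap for 3 members that were lower (12.3% of all tested) and 1 that was higher (18.5%). The members' median log2 change was -0.54, beside 0.11 for all tested miRNAs. Called members numbered 1 without any 1 library of the comparison, 1 when the 3 shallowest normal libraries were left out, 3 in edgeR and 4 with log2 reads as a covariate.

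**Figure D3:**
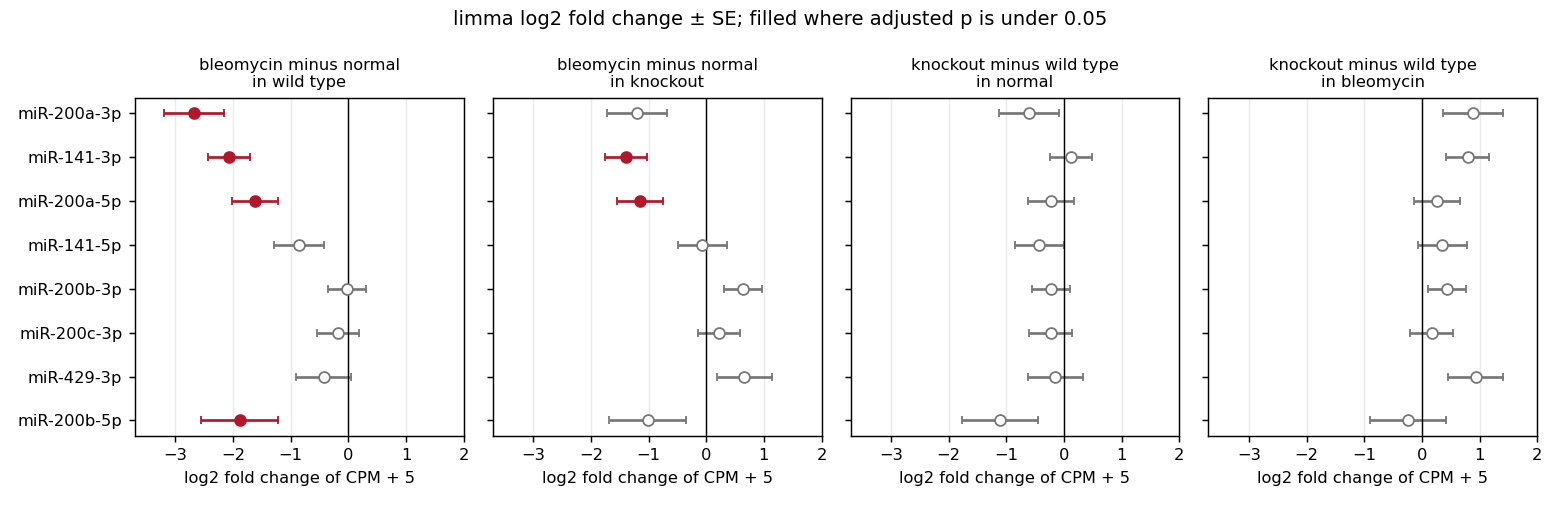
Log2 fold change of CPM + 5 (horizontal axis) with its standard error for each member in the 4 pairwise comparisons, n = 4 libraries in each group. Filled points have a limma adjusted p under 0.05: 4 members in wild type and 2 in the knockout after bleomycin, and none between genotypes.

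Read ratios within a library do not depend on how the library was scaled. The tested log2 ratios of pairs and strands had 5 CPM added to each miRNA, so those of low members depend on it in part. In all 8 normal libraries there was more miR-200a-3p than miR-200b-3p, with 2.24, 2.80, 4.16 and 3.70 reads of the first for each read of the second in wild type and 2.09, 2.94, 1.54 and 3.51 in the knockout. After bleomycin these ratios were 0.227, 0.536, 0.994 and 0.507 in wild type and 1.07, 0.506, 0.886 and 0.432 in the knockout. Only 1 of 8 bleomycin libraries, library 1 of the knockout, had more miR-200a-3p, and in both genotypes all bleomycin ratios lay below all normal ones. The difference in the mean log2 ratio was -2.65 in wild type and -1.83 in the knockout.

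The chromosome 6 pair with the same 2 seeds was set side by side likewise. Any miR-200a-3p reads counted as miR-141-3p would tie this ratio to the first pair, which was not tested. There were 6.42, 7.74, 17.2 and 13.1 reads of miR-141-3p per 1000 of miR-200c-3p in normal wild type, and 1.12, 1.66, 2.54 and 4.08 after bleomycin. In the knockout the ratio ran from 9.64 to 20.8 in normal libraries (mean 13.9 ± 5.21, SD, n = 4) and was 5.44, 2.60, 6.53 and 2.30 after bleomycin. With 5 CPM added to each miRNA the mean log2 difference was -1.88 in wild type and -1.61 in the knockout, without overlap. Because miR-141-3p is low, these are smaller falls than the printed read ratios give. For both pairs and both genotypes the two-sided exact permutation test gave p = 0.0286, the smallest value that 4 against 4 libraries allow, and 0.0571 after adjustment over 8 tests, so none passed 0.05. Passing would have needed most of the 8 tests to reach that smallest value. These pairs were tested after their values had been seen.

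Ratios between miRNAs of 1 seed were not tested. MiR-200b-3p exceeded miR-200c-3p 1.71 to 2.47 times in normal wild type and 2.24 to 2.47 times after bleomycin, with overlap. In the knockout the ratio was 2.18, 1.97, 2.02 and 2.29 in normal libraries and 2.88, 2.57, 3.37 and 2.53 after bleomycin, so that every bleomycin value was the higher. MiR-429-3p numbered 12.3 to 20.9 reads per 100 of miR-200b-3p in normal wild type and 5.85 to 17.4 after bleomycin, and 11.8 to 27.4 and 14.4 to 25.3 in the knockout, with overlap in both genotypes. Of the reads of the 5 3p members, miR-200a-3p and miR-141-3p together held 65.2% ± 6.96 in normal wild type and 25.3% ± 10.4 after bleomycin, and 59.0% ± 8.09 and 31.0% ± 9.21 in the knockout.

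The balance between the strands of 1 hairpin was tested too. MiR-141-5p numbered 66.7, 82.5, 51.5 and 68.2 reads per 100 reads of miR-141-3p in normal wild type and 100, 261, 260 and 129 after bleomycin. In the knockout the figures were 41.2, 52.1, 40.1 and 41.0, then 94.3, 128, 99.5 and 180. The 5p strand was the rarer one in all 8 normal libraries and the commoner one in 5 of 8 bleomycin libraries, with 1 tie. Both genotypes reached the smallest possible p (exact permutation p = 0.0286, adjusted p = 0.0857 over 12 tests). With 5 CPM added to each strand the mean log2 differences were 1.21 in wild type and 1.32 in the knockout, smaller than the printed read ratios give. Whether miR-200a-3p reads counted as miR-141-3p entered this ratio was not tested.

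For Mir200a the 5p strand numbered 2.38, 2.44, 1.44 and 1.99 reads per 100 of 3p in normal wild type and 6.02, 3.64, 2.89 and 4.66 after bleomycin, all higher (mean log2 difference 1.06, exact permutation p = 0.0286, adjusted p = 0.0857). In the knockout the same ratio overlapped between groups (log2 0.05, exact permutation p = 0.857, adjusted p = 0.857). For Mir200b it went the other way, from 3.22, 2.95, 0.683 and 1.37 to 0.385, 0.339, 0.907 and 0.326 in wild type (log2 -1.86, exact permutation p = 0.0571, adjusted p = 0.114). In the knockout it went from 0.538, 2.86, 0.579 and 0.753 to 0.521, 0.222, 0.361 and 0.133 (log2 -1.65, exact permutation p = 0.0286, adjusted p = 0.0857). The highest normal values were again those of the 3 libraries with the fewest reads. None of the 12 strand tests passed 0.05 after adjustment. Passing would have needed most of the 12 to reach the smallest possible p, so this outcome says little about any 1 ratio.

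**Figure D4:**
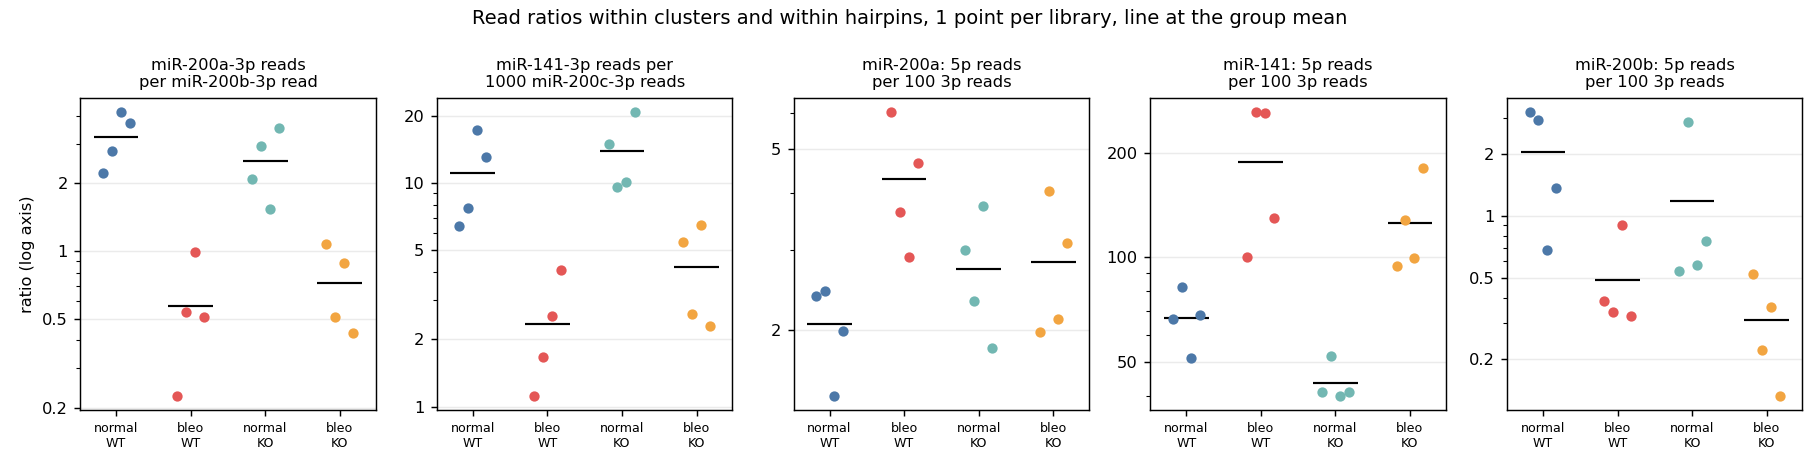
Read ratios on log axes, 1 point per library with a line at the group mean: miR-200a-3p to miR-200b-3p, miR-141-3p to miR-200c-3p, and 5p to 3p for 3 hairpins. All bleomycin libraries lie below all normal libraries of their genotype in the first 2 panels and above them for miR-141.

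Comparisons of knockout with wild type asked whether loss of syndecan-1 changed the family. In normal vesicles 0 of 8 members were called by limma, 0 had an unadjusted p under 0.05 and edgeR called 0, while 0% of the 325 miRNAs were called. That share hung on 1 library: without normal knockout library 2 limma called 64 of the 325, though still 0 of 8 members. Groups did not overlap for 0 of 8 members, beside 2.15% of all tested miRNAs lower in the knockout and 1.85% higher. MiR-200a-3p had 30981 ± 9903 CPM in the knockout and 46155 ± 11483 in wild type (SD, n = 4; log2 -0.60, SE 0.52, 95% interval -1.69 to 0.49, adjusted p = 0.514). It was -0.30 with log2 reads as a covariate. MiR-200b-5p had 147 ± 139 against 318 ± 233 CPM (log2 -1.11, SE 0.66, adjusted p = 0.354). That value was -0.12 with the covariate, -0.64 without the 3 shallowest normal libraries and -0.71 without wild-type library 1. For the other 6 members the log2 difference lay between -0.43 and 0.11.

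After bleomycin limma again called 0 of 8 members and edgeR 0, where 0.615% of all miRNAs tested were called by limma, and 1 member, miR-141-3p, had an unadjusted p under 0.05. It had 28.7 ± 13.9 CPM in the knockout and 14.2 ± 6.30 in wild type (log2 0.79, SE 0.37, 95% interval 0.02 to 1.56, adjusted p = 0.54). MiR-429-3p had 3702 ± 1518 against 2257 ± 1469 CPM (log2 0.94, SE 0.48, adjusted p = 0.556), and miR-200a-3p 14346 ± 6943 against 9493 ± 7437 CPM (log2 0.88, SE 0.52, adjusted p = 0.585). Without wild-type library 1 these were 0.44 and 0.39, and with any 1 library left out they ran from 0.44 to 1.29 and from 0.39 to 1.33. MiR-200b-3p was at 19440 ± 2660 and 15522 ± 7312 CPM (log2 0.44, SE 0.33, adjusted p = 0.689). The groups overlapped for all 8 members, where 2.15% of all tested miRNAs lay wholly lower in the knockout and 3.08% wholly higher.

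Whether bleomycin acted differently in the 2 genotypes was tested as an interaction. By limma 0 of 8 members were called, 0 had an unadjusted p under 0.05 and edgeR called 0, and 0% of all tested miRNAs were called. For miR-200a-3p the bleomycin change was 1.48 log2 units less negative in the knockout (SE 0.74, 95% interval -0.06 to 3.03, adjusted p = 0.623). For miR-429-3p the difference was 1.09 (SE 0.67, adjusted p = 0.661) and for miR-141-3p 0.68 (SE 0.52, adjusted p = 0.813). All 8 estimates were positive, with a median of 0.73 beside 0.15 for all tested miRNAs. A fall in wild type that is not called in the knockout is therefore not shown to differ between genotypes.

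The non-members nearest to miR-200a-3p were sought among 180 tested miRNAs with a mean of 50 CPM or more, by the root mean square difference of centred log2 values over the 16 libraries. MiR-223-3p, known from neutrophils and other myeloid cells, was nearest at 0.483 log2 units. MiR-30e-5p followed at 0.525 and miR-503-3p at 0.534, where the median of the 180 was 1.27. In wild type miR-223-3p went from a mean of 203 to 34.7 CPM, miR-30e-5p from 7344 to 1531 and miR-503-3p from 291 to 31.6. On the same scale miR-141-3p lay at 0.514 and miR-200a-5p at 0.539 from miR-200a-3p. Whether shared reads brought miR-141-3p nearer was not tested. The cluster partners miR-200b-3p and miR-429-3p lay at 1.26 and 1.07, with 88 and 42 non-members nearer.

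Marker miRNAs of cell types that could shed vesicles into lavage were counted beside the family. Of all 325 tested miRNAs 20% were called higher and 14.5% lower after bleomycin in wild type, and 14.8% and 8.62% in the knockout. The counts of these short lists were not tested against those shares. Of 10 other epithelial miRNAs (among them miR-375-3p, miR-34c-5p and miR-183-5p) 2 were called higher and 3 lower after bleomycin in wild type, with a median log2 change of -0.52. In the knockout 3 were higher and none lower, with a median of 0.24. Their summed level ran from 14763 to 51156 CPM in normal wild type and from 7813 to 31235 CPM after bleomycin, and from 17330 to 29023 and 11834 to 29926 CPM in the knockout. MiR-375-3p, made in secretory and neuroendocrine epithelial cells, fell by 3.12 on the log2 scale in wild type (SE 0.93, limma adjusted p = 0.0172). MiR-34c-5p, abundant in multiciliated cells, fell by 1.64 (SE 0.49, adjusted p = 0.0174), while miR-183-5p rose by 1.19 (SE 0.38, adjusted p = 0.0233).

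Of 6 mesenchymal miRNAs 4 were called higher in wild type and 1 in the knockout, and none lower, with median log2 changes of 2.202 and 0.71. MiR-199a-5p, of fibroblasts, rose by 3.39 on the log2 scale in wild type (SE 0.45, limma adjusted p = 3.87e-05) and by 1.91 in the knockout (SE 0.45, adjusted p = 0.00505). Their summed level ran from 36569 to 82734 CPM in normal wild type and from 37367 to 54706 after bleomycin, and from 21770 to 144793 and 41572 to 48722 CPM in the knockout. Most of that sum is miR-143-3p, which was not called (log2 -0.54 and -0.71, adjusted p = 0.354 and 0.242). Of 5 leukocyte miRNAs 2 were higher and 1 lower in wild type (median 0.16), and 3 higher and none lower in the knockout (median 1.55). Leukocyte sums ran from 197 to 393 CPM and then 179 to 833 CPM in wild type, and from 128 to 281 and then 224 to 522 CPM in the knockout.

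Of 3 erythrocyte miRNAs 2 were tested and 1 was called higher in each genotype, with sums of 160 to 2632 CPM in normal and 362 to 6108 CPM in bleomycin wild type, and 55.9 to 1492 and 554 to 2963 CPM in the knockout. MiR-144-3p of that list was at 0 in 5 libraries. Of 2 endothelial miRNAs 1 was called higher in wild type and none in the knockout, with sums of 342 to 1228 and 1068 to 3151 CPM in wild type and 407 to 3648 and 977 to 2203 CPM in the knockout. The part of these cell types in the family's values was not tested. MiR-21a-5p, which rises in injured tissue, took 3.91% ± 1.72 of wild-type reads in normal libraries and 25.4% ± 7.92 after bleomycin (SD, n = 4). Without it in the total all miRNAs moved up by a median of 0.35 log2 units, and miR-200a-3p, miR-141-3p and miR-200a-5p still fell by 2.31, 1.81 and 1.26 in wild type (adjusted p = 0.00118, 0.000655 and 0.0108). MiR-200b-5p was no longer called there (-1.55, adjusted p = 0.0676). In the knockout the shift was 0.33, and miR-200a-5p was no longer called (-0.76, adjusted p = 0.124) while miR-141-3p was (-1.07, adjusted p = 0.0296).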

How the data were processed

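The authors deposited 1 table of CPM for 1907 mature mouse miRNAs in 16 libraries, each library scaled to the same total. The submitters' processing notes name Bowtie2 2.2.3 and build GRCh38, a human build, without a role. The sources used here do not name the counter, the trimming or the miRBase version. Dividing by a library's smallest value above 0 turned 100% of values into whole numbers (tolerance 0.001), taken as reads. MiRNAs reaching 10 CPM in 4 or more libraries, 325 in all, were fitted as log2(CPM + 5) with limma 3.58.1 (R 4.3.3; 4 group means, eBayes with a trend) and Benjamini-Hochberg adjustment over all 325 in each of 5 comparisons, threshold 0.05. Fold changes of CPM + 5 understate changes of miRNAs near 5 CPM. EdgeR 4.0.16 (quasi-likelihood, recovered reads), which called 4, 3, 0, 0 and 0 members, was an alternative. Strand and pair ratios were log2 ratios of CPM + 5, compared by a two-sided exact permutation test over 70 arrangements. The limma step was tested on simulated data.

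All members are described in each comparison; the rule for further names took the 3 nearest non-members and up to 3 miRNAs per marker list, by mean CPM. Members, lists and tests were chosen with earlier results of these data known. Library titles number replicates 1 to 4 in each group, with nothing that ties a number to an animal or batch across groups. Sequences and places are from RefSeq and GENCODE M21 tables of GRCm38.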

Additional observations from a re-analysis of the deposited data

Results flagged for a closer look

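In 56 groups of 4 libraries (8 members and 6 summary measures in 4 groups), 6 had 1 library far from the other 3. For independent, normally distributed values chance gives about 1 in 20. The summary measures are built from the members, so the groups are not independent and the 6 are not shown to be an excess. MiR-200a-3p was at 63306 CPM in normal wild-type library 3, and without it the wild-type change was -2.51 (limma adjusted p = 0.00365). MiR-200b-5p was at 355 CPM in normal knockout library 2, where the hairpin also gave 2.86 5p reads per 100 3p reads. The same ratio was 0.907 in bleomycin wild-type library 3. MiR-141-5p was at 44.7 CPM in normal knockout library 4, and the miR-141 5p reads per 100 3p reads were 52.1 in normal knockout library 2. Causes were not tested.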

How the results depend on the processing

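In wild type 3 to 5 members were called in every alternative. In the knockout the count of 2 was 1 with no filter and at a 100 CPM filter (which drops both miR-141 strands). It was also 1 when the 3 shallowest normal libraries, or any 1 library, were left out. In edgeR and under median-of-ratios scaling it was 3, with miR-200a-3p added, and with log2 reads as a covariate it was 4. Without miR-21a-5p in the total it stayed at 2, but for other members. There limma called miR-141-3p lower (-1.07, adjusted p = 0.0296) and miR-200b-3p higher (1.03, adjusted p = 0.0145). The causes were not tested. Between genotypes and for the interaction the count was 0 throughout.

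Log2 values that changed sign were all uncalled. In wild type miR-200b-3p was 0.012 with median-of-ratios scaling, 0.35 without miR-21a-5p in the total, 0.063 in edgeR and 0.17 without those 3 libraries, and miR-200c-3p 0.19 and 0.22 in the second and last of these. With a library left out the ranges were -0.28 to 0.24 for miR-200b-3p, -0.46 to 0.11 for miR-200c-3p and -0.78 to 0.065 for miR-429-3p. In the knockout miR-141-5p was 0.27 without miR-21a-5p in the total (-0.21 to 0.086 with a library left out) and miR-200c-3p -0.014 with the covariate. Knockout minus wild type in normal vesicles with the covariate was 0.0041 for miR-200a-5p, 0.011 for miR-200b-3p, 0.10 for miR-200c-3p and 0.038 for miR-429-3p. MiR-200c-3p was 0.13 without the 3 libraries, and miR-141-3p -0.040 to 0.30 with a library left out. After bleomycin miR-200b-5p was 0.10 with the covariate, and ranges with a library left out were -0.62 to 0.19 for miR-200b-5p, -0.052 to 0.53 for miR-200a-5p, -0.13 to 0.67 for miR-141-5p and -0.12 to 0.45 for miR-200c-3p. The miR-200a strand ratio in the knockout was -0.012 without the 3 libraries (-0.15 to 0.22 with a library left out), and the normal miR-141-3p to miR-200c-3p difference -0.045.

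Same-numbered libraries showed no regular tendency to deviate together, though single pairs did (24 pairs, correlation -0.63 to 0.80, median -0.04, 9 over 0.1). The median for pairs with unlike numbers was -0.02, and 4 of 16 libraries correlated best with their own number. With the replicate block the members called numbered 4 in wild type, 2 in the knockout and 0 elsewhere. With any library left out no strand or pair ratio passed after adjustment (lowest adjusted p = 0.0571, exact permutation tests). With so few libraries these tests could hardly pass, so this does not measure how stable the ratios are. Counting error was widest for miR-141-3p and miR-141-5p, and miR-200b-5p in wild type was -1.89 with and -0.88 without the 3 shallowest normal libraries.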
